A study of Mus musculus with 6 samples.

Results

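The 10 genes described here encode small leucine-rich proteoglycans (Dcn, Bgn, Aspn, Fmod, Lum, Prelp, Omd and Ogn) and a pair of other stromal matrix proteins, the large proteoglycan versican (Vcan) and thrombospondin-2 (Thbs2). They were taken from the array by name: every probe set that the platform annotation assigns to 1 of these genes alone was used, which gave 30 of 45037 probe sets and 10 of 18193 named genes. RNA came from whole uteri of pregnant mice at 3.5 dpc, just before the embryo attaches, and was hybridised to Affymetrix mouse expression arrays. The groups were Arid1a d/d mice (Pgr cre/+ Arid1a f/f), with 3 arrays, and Arid1a f/f mice, with 3 arrays. In Arid1a d/d mice, Cre made from the Pgr locus deletes floxed Arid1a in PGR-expressing cells, so cells that lack PGR keep the gene. Both genotypes carry the floxed Arid1a alleles, Cre and its Pgr allele are present only in Arid1a d/d mice, and Cre-only mice are not among the samples, so effects of that allele and of Arid1a loss cannot be told apart. Females of both genotypes had been mated with C57BL/6 males. The age of these mice and whether an array held RNA of 1 mouse or of several are not given in the sources used here.

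Small leucine-rich proteoglycans are secreted proteins with a curved core of leucine-rich repeats that bind collagen fibrils and set their spacing and width. Decorin, biglycan and asporin form one class of the family, fibromodulin, lumican, PRELP and osteoadherin a second, and osteoglycin belongs to another. Several of them also hold growth factors such as TGF-beta in the matrix. In the mouse uterus these proteins lie in the collagen matrix of the endometrial stroma and of the muscle layers, and the collagen fibrils of the stroma are remodelled when it decidualises after implantation.

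Arid1a had an intensity of 54.0 ± 3.61 in Arid1a d/d uteri and 91.4 ± 10.9 in Arid1a f/f uteri (SD, n = 3 each), with no overlap between genotypes, and was lower at -0.76 on the log2 scale (limma adjusted p = 0.0120). It is not known here whether its probe sets detect the deleted stretch. Pgr, whose locus carries Cre, had 294 ± 25.2 in Arid1a d/d uteri and 244 ± 45.5 in Arid1a f/f uteri, at 0.28 (limma adjusted p = 0.346). Values are RMA intensities on a linear scale, lower than the scaling target of the methods by a step no source used here describes, compared as log2 with limma, and a positive log2 fold change marks more signal in Arid1a d/d uteri. A probe set passed the test at an adjusted p under 0.05 over all probe sets. For each gene the brightest probe set, by its mean over the 6 arrays, stood for the gene. Intensities of different probe sets are not compared with each other, since each has its own affinity. Array medians were 3.05 to 3.17 for Arid1a d/d and 3.10 to 3.15 for Arid1a f/f, and with 3 arrays per genotype their number limits the precision. Arid1a d/d replicate 2 stood apart by its summed epithelial marker intensity, 2513 against 1272 and 1708 on its group mates.

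In Arid1a d/d uteri, Dcn, Bgn, Fmod and Prelp of the small leucine-rich proteoglycan genes fell, as did Thbs2, by 1.89-fold to 3.79-fold in their brightest probe sets, while no member of the group rose past the test. Of the 10 genes, 5 fell and 0 rose in limma at an adjusted p under 0.05, and 5 did not pass. The background over all named genes was 4.06% lower and 3.37% higher. The 10 were chosen with earlier results of these data known, so setting their count beside this share is no independent test. With each gene as the mean of its probe sets the counts were again 5 and 0, over a background of 3.70% lower and 3.33% higher. For these 5 and Lum every Arid1a d/d array lay below every Arid1a f/f array, which was so for 16.0% of all named genes, and for Ogn and Omd every one lay above, which was so for 13.4%. Of the other 5, Lum had -0.49, and Ogn, Omd, Aspn and Vcan had positive log2 fold changes of 0.41 to 0.50. At an unadjusted p, 6 genes were lower and 4 higher in limma, over a background of 13.5% and 11.4% of all named genes. The methods' t-test gave 6 and 2, over 10.6% and 9.51%. The median log2 fold change of the 10 was -0.70, against -0.018 over all named genes, and it falls in the gap between Thbs2, at -0.92, and Lum. Whole uterus was measured, so fewer cells of a type and less RNA per cell cannot be told apart.

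**Figure D1:**
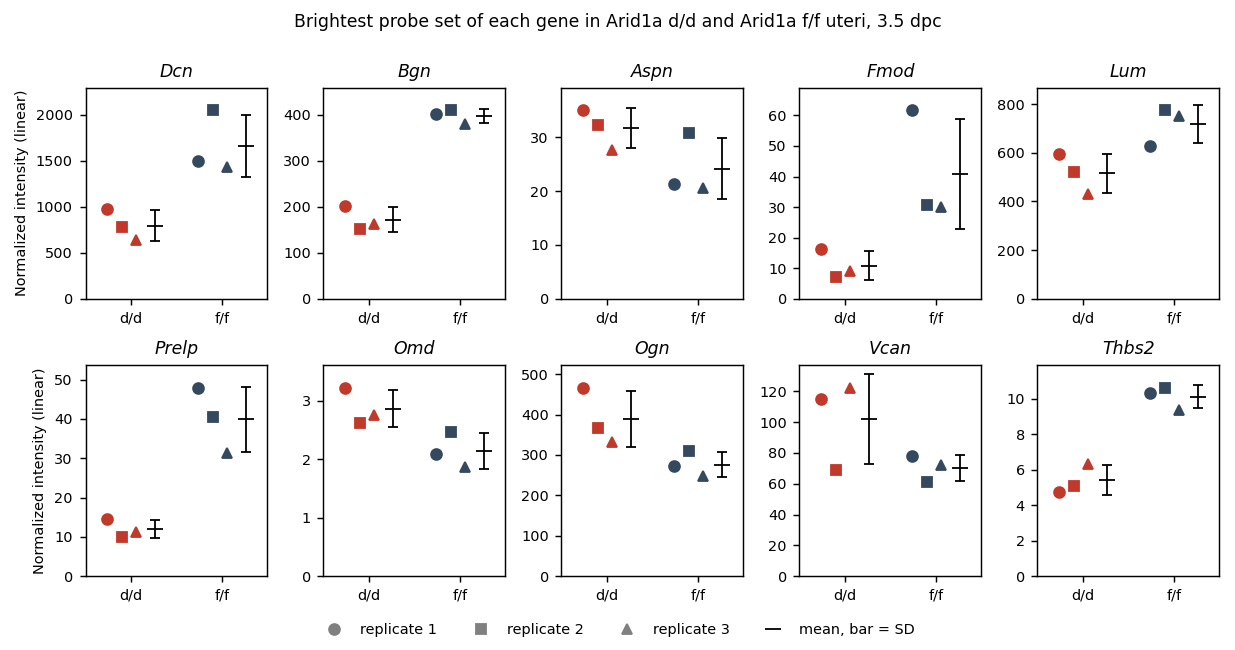
Normalized intensity (linear, vertical axes from 0) of the brightest probe set of each of the 10 genes on the 3 Arid1a d/d arrays (red, left) and the 3 Arid1a f/f arrays (dark, right). Marker shapes give the replicate number, and the black bar is the mean with its SD. Every Arid1a d/d array of Bgn lies between 151 and 202, against 380 to 410 in Arid1a f/f, while those of Ogn lie between 332 and 466, above the 247 to 309 of Arid1a f/f.

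Decorin and biglycan, the closely related class members that carry chondroitin or dermatan sulfate chains, both fell. Dcn, whose protein coats collagen fibrils and binds TGF-beta, had intensities of 973, 781 and 635 in Arid1a d/d uteri, against 1499, 2053 and 1431 in Arid1a f/f uteri. The groups did not overlap, and the log2 fold change was -1.06 (SE, the standard error of the log2 fold change, 0.19, limma adjusted p = 0.0180), a 2.09-fold lower value. A second probe set of Dcn read 3.66, 3.43 and 3.91 in Arid1a d/d mice, against 6.13, 9.16 and 7.03 in Arid1a f/f mice, and gave -1.003 (limma adjusted p = 0.0109). Both probe sets fell with no overlap, and the second lay close to the median of all intensities, 3.12, in Arid1a d/d mice. The brighter one was no longer past the threshold without Arid1a d/d replicate 2 or without Arid1a f/f replicate 2.

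Bgn, whose protein shares the collagen and TGF-beta binding of decorin and can also signal through Toll-like receptors when released, had 202, 151 and 163 in Arid1a d/d uteri. In Arid1a f/f uteri it had 403, 410 and 380. The 3 Arid1a f/f arrays lay close together and far above the Arid1a d/d arrays, and the log2 fold change was -1.22 (SE 0.12, limma adjusted p = 0.00294). The other 2 probe sets of Bgn gave -1.16 (limma adjusted p = 0.00493) and -1.41 (limma adjusted p = 0.00521), again with no overlap. The calls of all 3 held with any 1 array left out.

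Asporin, the class member named for its run of aspartates, was not called. Aspn had 35.1, 32.4 and 27.7 in Arid1a d/d uteri, against 21.3, 30.8 and 20.6 in Arid1a f/f uteri. The groups overlapped through Arid1a f/f replicate 2, and the log2 fold change was 0.41 (95% interval 0.028 to 0.79, limma adjusted p = 0.235), short of the threshold. Its second probe set had 0.15 (95% interval -0.37 to 0.66), also overlapping.

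In the class of fibromodulin, Fmod and Prelp fell. Fmod, whose keratan sulfate proteoglycan binds fibrillar collagen and is known to affect its crosslinking, had 16.3, 7.10 and 9.06 in Arid1a d/d uteri. In Arid1a f/f uteri it had 61.7, 30.7 and 30.1. Arid1a f/f replicate 1 stood well above its 2 group mates, and the lowest Arid1a f/f array was still above the highest Arid1a d/d array. The log2 fold change was -1.92 (SE 0.34, limma adjusted p = 0.0194), a 3.79-fold lower value. Fmod has 6 probe sets, and all 6 passed with no overlap between genotypes. Their log2 fold changes ran from -1.92 to -0.96. The brightest is marked, by the suffix of its name, as one that can detect other transcripts, and the only unmarked one had -1.69 (limma adjusted p = 0.0305). When each array was left out in turn, the brightest probe set passed in only 1 of 6 fits, that without Arid1a d/d replicate 1, with log2 fold changes of -2.26 to -1.58. The unmarked one likewise passed only without Arid1a d/d replicate 1, and lost its call with a pseudocount of 4 (limma adjusted p = 0.0860). Probe sets of Fmod with Arid1a d/d means of 3.35, 3.38 and 2.67 lay near the median of all intensities, 3.12.

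Prelp, which encodes a proline- and arginine-rich relative that binds collagen and heparan sulfate, had 14.6, 10.1 and 11.3 in Arid1a d/d uteri, against 47.9, 40.5 and 31.4 in Arid1a f/f uteri. The groups did not overlap, and the log2 fold change was -1.73 (SE 0.18, limma adjusted p = 0.00324), a 3.32-fold lower value that passed with any 1 array left out. That probe set is marked as able to detect several transcripts. The second probe set of Prelp read 3.05, 4.01 and 2.77 in Arid1a d/d mice, against 5.67, 5.07 and 4.62 in Arid1a f/f mice. It is unmarked and gave -0.66 (limma adjusted p = 0.0452), a 1.58-fold lower value, and passed in only 1 of 6 such fits, that without Arid1a d/d replicate 2. That call was also lost with quantile normalization (limma adjusted p = 0.0509) or a pseudocount of 4 (limma adjusted p = 0.0777). The Arid1a d/d mean of this probe set, 3.28, lay near the median of all intensities, 3.12.

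Lum and Omd, of the same class, did not pass the test. Lum, which encodes the keratan sulfate proteoglycan lumican, had 594, 520 and 432 in Arid1a d/d uteri, against 629, 775 and 753 in Arid1a f/f uteri. The groups did not overlap, but the step between the nearest arrays was small, and the log2 fold change was -0.49 (95% interval -0.81 to -0.17, limma adjusted p = 0.0951). Omd encodes osteoadherin, known from bone. It had 3.22, 2.62 and 2.75 in Arid1a d/d uteri and 2.08, 2.47 and 1.86 in Arid1a f/f uteri. Both means were below the median of all intensities, 3.12, where a low value cannot be told from background, and the log2 fold change was 0.43 (95% interval 0.12 to 0.73, limma adjusted p = 0.121).

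Osteoglycin, the member of the remaining class, had higher values in Arid1a d/d uteri. Ogn had 466, 366 and 332 there, against 272, 309 and 247 in Arid1a f/f uteri. No Arid1a d/d array overlapped an Arid1a f/f array, and the log2 fold change was 0.48 (95% interval 0.15 to 0.82, limma adjusted p = 0.108), which did not pass. Its second probe set had 134, 91.5 and 68.3 in Arid1a d/d mice and 57.4, 75.4 and 39.4 in Arid1a f/f mice, with overlap and a log2 fold change of 0.77 (limma adjusted p = 0.180). Both probe sets of Ogn had log2 fold changes above 0, while those of Dcn, Bgn, Fmod and Prelp were all below it.

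Versican and thrombospondin-2, the matrix proteins outside the leucine-rich family, had fold changes of opposite sign. Versican is a large chondroitin sulfate proteoglycan that binds hyaluronan and swells the matrix. Vcan had 115, 68.7 and 122 in Arid1a d/d uteri, against 77.7, 61.3 and 72.4 in Arid1a f/f uteri. Arid1a d/d replicate 2 lay within the Arid1a f/f range while its 2 group mates lay above it. The log2 fold change was 0.50 (95% interval 0.019 to 0.98, limma adjusted p = 0.251), and without that replicate it passed at 0.76. A second probe set of Vcan, with 29.6, 17.3 and 24.2 in Arid1a d/d mice and 15.3, 10.4 and 13.4 in Arid1a f/f mice, did not overlap and had 0.85 (limma adjusted p = 0.0573). Another had 0.81 (limma adjusted p = 0.181), and the remaining 5 probe sets of Vcan read below the median of all intensities in both genotypes, at -0.18 to 0.16. The probe set at -0.18 had 1.69, 1.94 and 1.95 in Arid1a d/d mice, against 2.00, 2.23 and 2.10 in Arid1a f/f mice, with no overlap.

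Thrombospondin-2 is a matricellular protein that restrains vessel growth and whose loss in mice gives irregular collagen fibrils. Thbs2 had 4.73, 5.10 and 6.34 in Arid1a d/d uteri, against 10.3, 10.6 and 9.37 in Arid1a f/f uteri. The groups were well apart, and the log2 fold change of -0.92 (SE 0.13, limma adjusted p = 0.00864) passed with any 1 array left out. With a pseudocount of 4 it was -0.59 and passed (limma adjusted p = 0.0189). The 2 other probe sets of Thbs2 had Arid1a d/d means of 3.53 and 3.74, near the median of all intensities, 3.12. Of these 2, 1 passed, at -0.68 (limma adjusted p = 0.0301), and passed in only 1 of 6 fits with an array left out, that without Arid1a d/d replicate 1. The other had 3.56, 3.64 and 4.01 in Arid1a d/d mice, against 4.95, 4.43 and 4.01 in Arid1a f/f mice, at -0.25 with a tie between the groups (limma adjusted p = 0.273).

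Counted by probe set, 15 of the 30 were lower and 0 higher at an adjusted p under 0.05, and 15 did not pass, where the background over all probe sets was 2.35% lower and 2.42% higher. At an unadjusted p limma gave 16 lower and 7 higher, over a background of 9.23% and 9.27% of all probe sets. The methods' t-test gave 16 and 3, over 7.36% and 7.52%. The 15 lower ones are 6 of Fmod, 3 of Bgn and 2 each of Dcn, Prelp and Thbs2. Probe sets of 1 gene measure the same RNA and are not replicates. Of the 15 that did not pass, 8 belong to Vcan, and 6 of the 30 read below the median of all intensities in both genotypes. Every Arid1a d/d array was below every Arid1a f/f array for 17 of the 30 and above for 3, over a background of 11.5% and 11.0%.

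**Figure D2:**
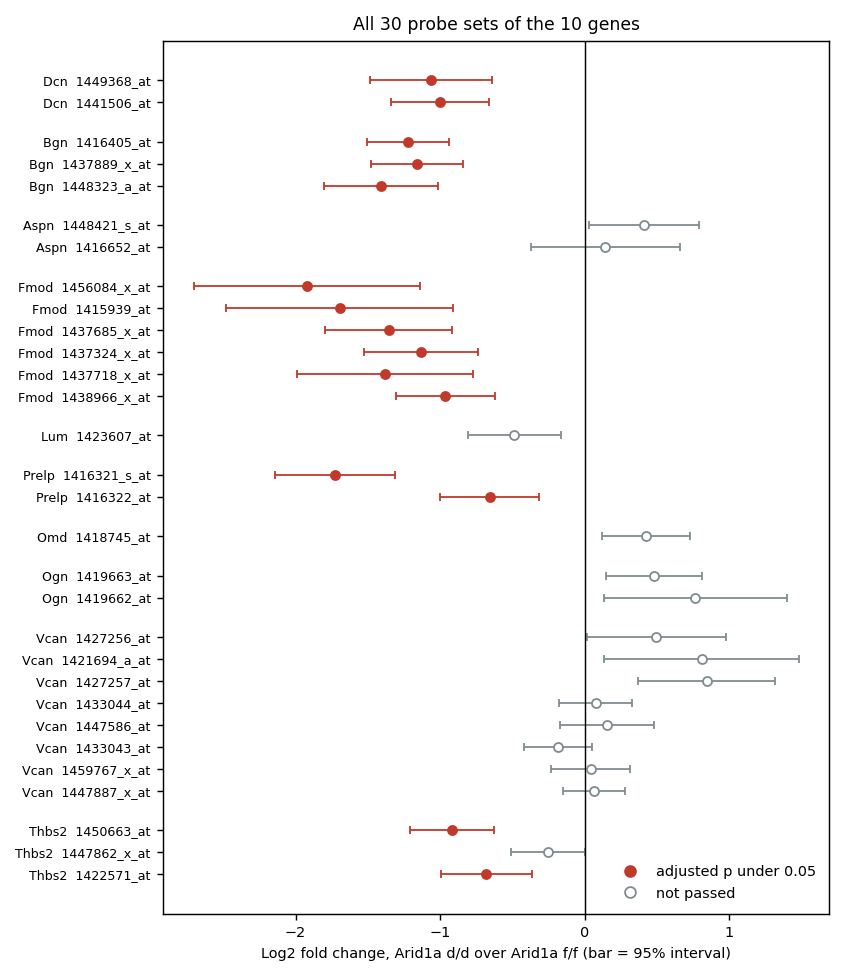
Log2 fold change, Arid1a d/d over Arid1a f/f (horizontal axis), of all 30 probe sets of the 10 genes, grouped by gene, from 3 arrays per genotype. Points are the limma estimates with their 95% intervals, filled where the adjusted p is under 0.05. All probe sets of Dcn, Bgn, Fmod and Prelp are filled and left of 0, and no probe set of Ogn, Omd, Aspn or Vcan is filled.

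The arrays of 1 genotype differed from each other in the same order on many of these genes. Within Arid1a d/d mice, replicate 1 was the highest array for 8 of the 10 genes, and replicate 2 was the highest for 0 and the lowest for 5. Within Arid1a f/f mice, replicate 2 was the highest for 7 and replicate 3 the lowest for 8. This order ran across genes that fell and genes that did not, Dcn and Ogn among them. It was not counted over all named genes, so whether it is particular to the 10 was not tested.

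Except Bgn, the small leucine-rich proteoglycan genes among the 10 lie in runs of neighbouring matrix genes. Those of the 10 that share a run had fold changes of the same sign, while Ecm2 differed in sign from its neighbours Aspn, Omd and Ogn. On chromosome 1 of the mouse assembly GRCm38.p6, Optc, Prelp and Fmod are neighbours. Prelp and Fmod fell, while Optc, which encodes opticin of the eye, had 15.2 ± 3.66 in Arid1a d/d uteri and 16.2 ± 3.11 in Arid1a f/f uteri (SD, n = 3 each) and a log2 fold change of -0.10 (95% interval -0.54 to 0.34). On chromosome 10, Dcn and Lum are followed by Kera and Epyc, the genes of keratocan of the cornea and epiphycan of cartilage. Both read below the median of all intensities in both genotypes, at log2 fold changes of -0.048 and -0.047. On chromosome 13, Aspn, Omd and Ogn are neighbours, and Omd read below the median of all intensities in both genotypes. All of these had log2 fold changes above 0, from 0.41 to 0.48, none past the test. Their neighbour Ecm2, a leucine-rich repeat gene of asporin's class, had 3.56, 3.20 and 2.71 in Arid1a d/d uteri and 3.56, 4.22 and 4.69 in Arid1a f/f uteri, at -0.40 (limma adjusted p = 0.169). Vcan, elsewhere on chromosome 13, is next to Hapln1, the gene of a link protein that ties it to hyaluronan, which had 0.097 and was dim. Thbs2 on chromosome 17 is next to Smoc2, which encodes a SPARC-related matrix protein and fell as well, at -0.98 (limma adjusted p = 0.0231), a call lost with a pseudocount of 4 or with its probe sets averaged. Smoc2 had 120, 83.2 and 89.6 in Arid1a d/d uteri, against 155, 235 and 187 in Arid1a f/f uteri. Of 8 measured other small leucine-rich proteoglycan genes, 0 were lower or higher in limma at an adjusted p under 0.05 (1 lower, Ecm2, at an unadjusted p, and 0 in the methods' t-test), with a median of -0.047. Second by p was Nyx, the nyctalopin gene of the retina, at 0.14 (limma adjusted p = 0.607). Whether neighbours moved together was not tested.

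**Figure D3:**
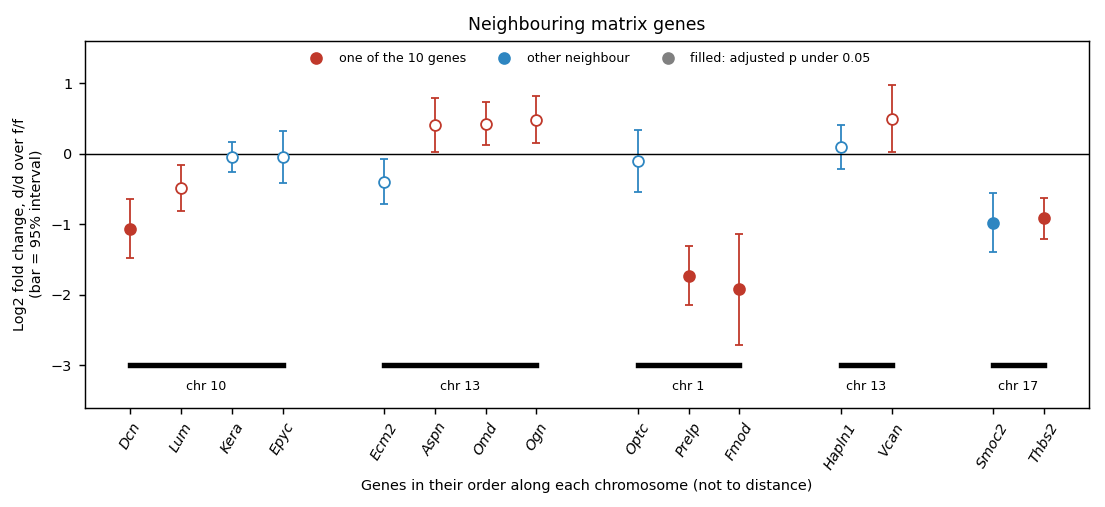
Log2 fold change, Arid1a d/d over Arid1a f/f (vertical axis), with 95% intervals, of the 10 genes except Bgn (red) and their matrix gene neighbours (blue), in their order along each chromosome and not to distance. Points are filled where the adjusted p is under 0.05. Prelp and Fmod at -1.73 and -1.92 stand beside Optc at -0.10, and Aspn, Omd and Ogn all lie above 0 beside Ecm2 at -0.40.

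Of the 10 genes, 8 have a promoter in the RefSeq table of GRCm38.p6, and Dcn and Lum have none there. The 250 bases upstream of the start are shown for Bgn, Prelp and Fmod, which fell, and for Ogn. Ogn had higher values that did not pass the test. These windows were chosen since they differ in base composition. Capitals mark matches to the GC box GGGCGG or the TATA box TATAAA on either strand, overlapping matches included.
Bgn (chrX:73483351-73483600, + strand): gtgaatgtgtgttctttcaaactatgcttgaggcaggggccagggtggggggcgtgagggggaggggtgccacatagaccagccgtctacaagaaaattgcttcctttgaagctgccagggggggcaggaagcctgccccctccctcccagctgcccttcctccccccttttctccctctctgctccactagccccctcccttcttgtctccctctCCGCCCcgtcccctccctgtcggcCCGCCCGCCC
Prelp (chr1:133921402-133921651, - strand): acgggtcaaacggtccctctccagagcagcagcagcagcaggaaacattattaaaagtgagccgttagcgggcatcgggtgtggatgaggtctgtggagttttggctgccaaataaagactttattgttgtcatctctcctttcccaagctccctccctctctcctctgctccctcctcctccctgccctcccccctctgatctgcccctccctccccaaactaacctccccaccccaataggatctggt
Fmod (chr1:134037004-134037253, + strand): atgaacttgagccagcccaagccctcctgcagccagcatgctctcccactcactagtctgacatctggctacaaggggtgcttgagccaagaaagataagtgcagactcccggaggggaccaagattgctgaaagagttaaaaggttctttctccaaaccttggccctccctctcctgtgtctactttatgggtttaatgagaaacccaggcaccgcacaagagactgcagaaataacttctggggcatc
Ogn (chr13:49607765-49608014, + strand): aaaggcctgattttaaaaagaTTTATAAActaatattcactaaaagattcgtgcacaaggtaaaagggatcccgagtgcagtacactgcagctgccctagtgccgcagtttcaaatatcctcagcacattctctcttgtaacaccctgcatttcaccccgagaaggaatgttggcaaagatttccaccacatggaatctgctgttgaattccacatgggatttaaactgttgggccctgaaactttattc
The window of Bgn holds 64.4% G and C and 3 GC box matches on the opposite strand, of which 2 overlap at its end next to the start. That of Ogn holds 42.0% and a pair of overlapping TATA matches, 1 on each strand, near its far end, while those of Prelp and Fmod hold 55.6% and 51.2% and neither motif. The median of all 32851 windows was 52.4%. Windows not shown include that of Thbs2, which fell, at 46.8%, and that of Vcan, which did not pass, at 62.4%. Among the 8 windows, a GC box match was found for Vcan and Bgn (32.7% of all windows) and a TATA match for Aspn, Ogn and Thbs2 (12.4% of all windows). The AP-1 site TGANTCA, in 6.75% of all windows, the full palindrome of the progesterone response element, in 0.387%, and that of the estrogen response element, in 0.0639%, had no match in the 8. The matches describe letters only.

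Genes that build the sugar chains of these proteoglycans were also read. Of 29 measured genes of glycosaminoglycan chain synthesis, 0 were lower and 2 higher at an adjusted p under 0.05, with a median log2 fold change of -0.017. At an unadjusted p, 4 were lower and 3 higher in limma and in the methods' t-test alike. For this list and those that follow, the background at an adjusted p was 4.06% lower and 3.37% higher of all named genes. At an unadjusted p it was 13.5% and 11.4% in limma, and 10.6% and 9.51% in the methods' t-test. The genes that rose encode sulfotransferases of chondroitin sulfate. Chst11 had 35.9, 41.0 and 34.6 in Arid1a d/d uteri, against 19.3, 28.0 and 23.4 in Arid1a f/f uteri, at 0.67 (limma adjusted p = 0.0378). Chst13 had 9.39, 8.44 and 5.20 in Arid1a d/d uteri, against 3.56, 4.38 and 4.05 in Arid1a f/f uteri, at 0.90 (limma adjusted p = 0.0447). With each array left out in turn, either call held in only 1 of 6 fits, that without Arid1a f/f replicate 2 for Chst11 and without Arid1a d/d replicate 3 for Chst13. Neither passed with a pseudocount of 4.

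Of 16 measured genes of hyaluronan and the lecticans, the partners of versican, 0 were lower or higher at an adjusted p under 0.05 in limma, and 5 lower and 1 higher at an unadjusted p (2 and 0 in the methods' t-test). Their median was -0.061. Itih5, whose protein belongs to the hyaluronan-binding inter-alpha-trypsin inhibitor heavy chains, had 293, 132 and 197 in Arid1a d/d uteri, against 409, 406 and 364 in Arid1a f/f uteri, at -0.995 (limma adjusted p = 0.0555). Has2, a hyaluronan synthase gene, had 3.53, 3.72 and 4.76 in Arid1a d/d uteri, against 4.88, 9.39 and 8.75 in Arid1a f/f uteri, at -0.89 (limma adjusted p = 0.0739).

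Of 14 measured genes of fibrillar and fibril-associated collagens, 1 was lower and 0 higher at an adjusted p under 0.05 (4 and 0 at an unadjusted p in limma, 2 and 0 in the methods' t-test), with a median of -0.23. That gene was Col14a1, whose collagen XIV sits on fibril surfaces and binds decorin. It had 74.2, 50.8 and 66.4 in Arid1a d/d uteri, against 165, 120 and 123 in Arid1a f/f uteri, at -1.09 (limma adjusted p = 0.0128), and passed with any 1 array left out. The count of lower collagen genes was 2, with Col5a2, under 4 of the other settings, and 3, with Col5a2 and Col12a1, when probe sets were averaged. It was also 2 without Arid1a d/d replicate 1. The major fibrillar chains had log2 fold changes nearer to 0, with -0.12 for Col1a1, -0.26 for Col1a2 and -0.14 for Col3a1, and all 3 overlapped between genotypes. These, Col5a2 and Col12a1 were chosen for naming after their values were seen.

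Among genes of collagen processing and crosslinking, a pair of related procollagen proteinase enhancers changed in opposite directions. Of 18 measured, 3 were lower and 2 higher at an adjusted p under 0.05, with a median of -0.099. At an unadjusted p, 6 were lower and 2 higher in limma, and 3 and 2 in the methods' t-test. Pcolce, which encodes the enhancer of procollagen C-proteinase, had 168, 126 and 116 in Arid1a d/d uteri, against 360, 281 and 269 in Arid1a f/f uteri, at -1.16 (limma adjusted p = 0.00966). Its relative Pcolce2 had 26.3, 32.3 and 22.4 in Arid1a d/d uteri, against 10.4, 8.09 and 7.5 in Arid1a f/f uteri, at 1.64 (limma adjusted p = 0.00290). Bmp1, the proteinase itself, which also trims the biglycan propeptide, fell at -0.71 (limma adjusted p = 0.00917), but did not pass when its probe sets were averaged. Loxl1, a lysyl oxidase-like gene of elastin and collagen crosslinking, had 34.6, 38.1 and 48.5 in Arid1a d/d uteri, against 86.8, 93.8 and 73.2 in Arid1a f/f uteri, at -1.07 (limma adjusted p = 0.00847). These 4 calls held with any 1 array left out. The other higher gene was Adamts3, at 0.55, which lost its call when any 1 array was left out.

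Measured genes of ligands that decorin, biglycan or thrombospondin-2 bind, and of receptors for these proteins or for such ligands, numbered 17. Of these, 3 were lower and 0 higher at an adjusted p under 0.05, with a median of -0.33. At an unadjusted p, 9 were lower and 0 higher in limma, and 5 and 0 in the methods' t-test. Tlr2, a Toll-like receptor that biglycan can engage, had 4.98, 4.60 and 5.44 in Arid1a d/d uteri, against 9.58, 8.44 and 12.6 in Arid1a f/f uteri, at -1.01 (limma adjusted p = 0.0114). Lrp1, the endocytic receptor that clears thrombospondin-2, had 48.4, 54.4 and 44.7 in Arid1a d/d uteri, against 72.9, 78.9 and 75.0 in Arid1a f/f uteri, at -0.62 (limma adjusted p = 0.0167). Kdr, the VEGF receptor gene, had -0.50 (limma adjusted p = 0.0484), a call that was lost when any 1 array was left out, while that of Lrp1 was lost without Arid1a d/d replicate 3 or Arid1a f/f replicate 2 or 3.

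**Figure D4:**
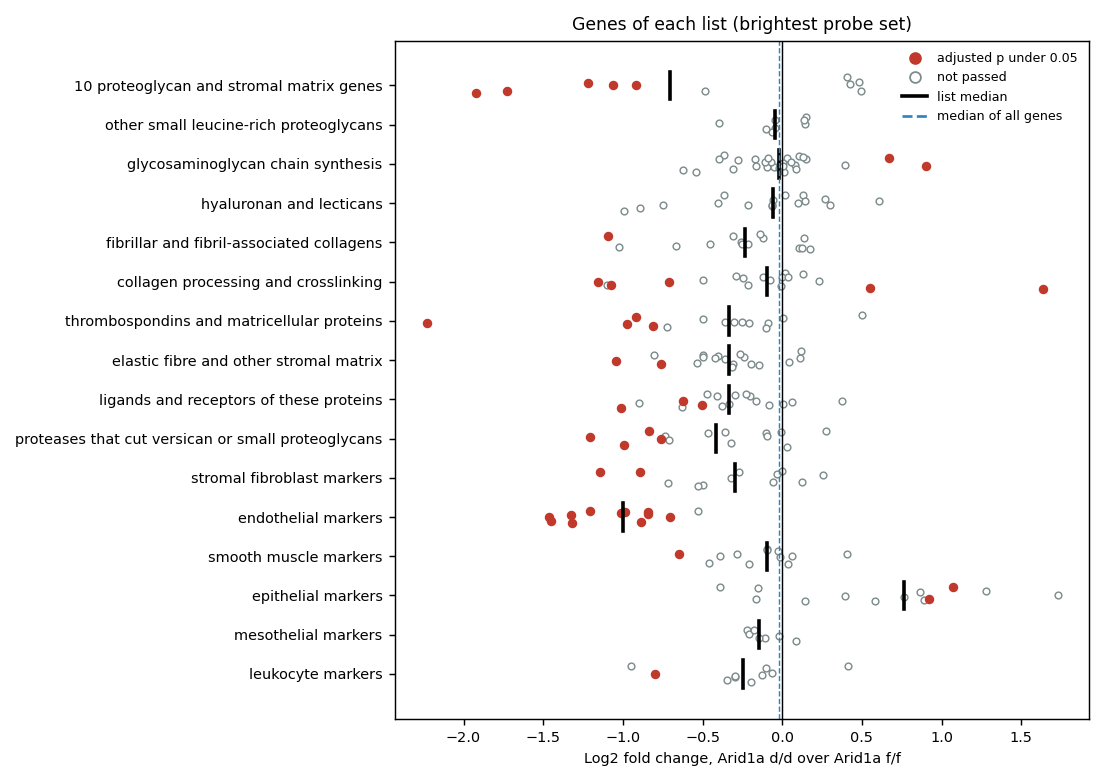
Log2 fold change, Arid1a d/d over Arid1a f/f (horizontal axis), of each measured gene of the lists named on the vertical axis, from 3 arrays per genotype. Filled points have an adjusted p under 0.05, vertical scatter within a list carries no value, the black bar is the list median and the dashed line the median of all named genes, -0.018. The 10 genes split into points near or below -0.49 and points near 0.4 to 0.5, while endothelial markers all lie below 0 around a median of -1.002.

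Of 12 measured markers of stromal fibroblasts, cells that make these proteins, 2 were lower and 0 higher at an adjusted p under 0.05 (6 and 0 at an unadjusted p in limma, 4 and 0 in the methods' t-test), with a median of -0.30. Their summed intensity was 2022 to 2799 on Arid1a d/d arrays and 2947 to 3161 on Arid1a f/f arrays. The lower ones were Pi16, a fibroblast marker gene, at -1.14 (limma adjusted p = 0.00864), and Thy1, at -0.89 (limma adjusted p = 0.0177). The 2 became 4, with Pdgfrb and Vim, when probe sets were averaged. Pdgfrb also passed with quantile normalization, trend and robust options, dim probe sets left out, or probe sets marked for several transcripts removed. Vim passed with that removal as well. Pi16 was not called once probe sets marked for several transcripts were removed, and Thy1 was not called without Arid1a d/d replicate 2 or Arid1a f/f replicate 1 or 2.

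Markers of other cell types were read in the same RNA. Of 12 endothelial markers, 11 were lower and 0 higher. At an unadjusted p, 12 were lower and 0 higher in limma and in the methods' t-test alike. Their median was -1.002, with a summed intensity of 236 to 301 on Arid1a d/d arrays and 570 to 606 on Arid1a f/f arrays. With an array left out the 11 were 6 to 10, with 7 when Arid1a f/f replicate 2 was out and 6 when it was replicate 3 of Arid1a d/d or of Arid1a f/f. Of 13 measured epithelial markers, 0 were lower and 2 higher (0 and 8 at an unadjusted p in limma, 0 and 2 in the methods' t-test). Their median was 0.77. Their sum was 1272, 2513 and 1708 on Arid1a d/d arrays 1, 2 and 3 and 1200 to 1284 on Arid1a f/f arrays. Replicate 1 of Arid1a d/d lay within the Arid1a f/f range. Without replicate 2 the epithelial median was 0.39, and that of the 10 genes was -0.69, with 3 of them lower and 1 higher. Of 12 smooth muscle markers, 1 was lower and 0 higher (4 and 0 at an unadjusted p in limma, 3 and 0 in the methods' t-test). Their median was -0.094, with sums of 8170 to 9800 on Arid1a d/d arrays and 9003 to 10101 on Arid1a f/f arrays. Of 10 leukocyte markers, 1 was lower and 0 higher (3 and 1 at an unadjusted p in limma, 2 and 0 in the methods' t-test). Their median was -0.25, with sums of 331 to 414 on Arid1a d/d and 401 to 587 on Arid1a f/f arrays. Of 7 mesothelial markers, 0 were lower or higher (1 lower at an unadjusted p in limma, likewise in the methods' t-test), with a median of -0.14 and sums of 70.2 to 99.6 on Arid1a d/d arrays and 85.2 to 101.1 on Arid1a f/f arrays. The pair with the smallest p were Msln, at -0.22 (limma adjusted p = 0.263), and Lrrn4, at -0.18 (limma adjusted p = 0.426). No marker is listed at 0, since the lowest intensity of the table is 1.29. The part of these cell types in the values of the 10 genes was not tested.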

How the data were processed

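Whole-uterus RNA of Arid1a d/d and Arid1a f/f mice at 3.5 dpc was measured on 3 Affymetrix arrays per genotype. The deposited intensity values came from RMA with global scaling by the authors, and no RMA version is given in the sources used here. They are linear, from 1.29 to 4479, for 45037 probe sets, with no detection calls or scan batches, while log2 values had been foreseen, so log2 was taken, unfiltered. Their mean after trimming 2% from each tail was 16.7 to 17.2 on Arid1a d/d and 16.4 to 16.7 on Arid1a f/f arrays, below the target that the methods state, and the step that rescaled them is stated in no source used here. Genotypes were tested with limma 3.58.1 (lmFit, eBayes, two-sided) under R 4.3.3, adjusted by Benjamini-Hochberg over every probe set, a step also tested on simulated data. Gene names are those of the platform annotation, updated by Entrez ID to GRCm38.p6, and 34945 probe sets name 1 gene, 932 several and 9160 none here. Every member is named, and in each list up to 4 called genes with the smallest p, or 2 where none passed. Members and lists were chosen with earlier results of these data known. The labels do not tie samples to separate mice, so the spread behind each p-value is that between these samples, which may be technical. Alternatives covered a replicate block, other scalings (quantile, median), a filter on dim probe sets, trend and robust eBayes, array weights, the methods' t-test, a pseudocount of 4, averaged probe sets, removal of probe sets marked for several transcripts, and each array left out.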

Additional observations from a re-analysis of the deposited data

How the results depend on the processing

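The count of 5 lower genes among the 10 was 3 to 5 when 1 array was left out, with 3 without Arid1a d/d replicate 2 or Arid1a f/f replicate 2, and that of higher genes was 0 to 1, the 1 being Vcan without Arid1a d/d replicate 2. The count of 15 lower probe sets was 8 to 13 in these fits, with 8 without Arid1a f/f replicate 2, and that of higher ones was 0 to 3, the 3 being of Vcan without Arid1a d/d replicate 2. With the methods' t-test after Benjamini-Hochberg adjustment, 0 genes and 0 probe sets of the 10 genes were lower, and 0 of all 45037 probe sets passed in either direction. With the probe sets marked for several transcripts removed, 7 of the 17 remaining probe sets were lower. With eBayes trend and robust options, 1 gene (Ogn) and 2 probe sets were higher and Lum was lower as well. Array weights gave 1 higher probe set, as did leaving out the dimmest probe sets, in both cases of Vcan. With the replicate number as a block, 2 probe sets, both of Vcan, were higher and the 5 genes kept their calls. The correlations of the deviations of same-numbered arrays were -0.004, 0.047 and 0.143. Arid1a d/d replicates 2 and 3 correlated best with the Arid1a f/f array of their own number. Arid1a d/d replicate 1 correlated best with Arid1a f/f replicate 2, at 0.065. With 3 arrays per genotype these values cannot tell whether same-numbered arrays share a batch or are paired, and no source used here says so. A pseudocount of 4 ended the calls of Fmod, Chst11, Chst13, Smoc1, Smoc2, Mmp3, Adamts15, Kdr, Wnt7a and Ptprc among the genes named, and averaging probe sets ended those of Smoc2, Bmp1, Adamts3, Des, Wnt7a and Ptprc. Array weights ended that of Chst13 and quantile normalization that of Kdr. In the other direction, Col5a2 passed with averaged probe sets, quantile normalization, array weights, trend and robust options or the block, and Col12a1, Vim, Chpf and Chst1 passed with averaged probe sets. Itih5 passed with array weights, quantile normalization, dim probe sets left out or the block, Has2 with the block, and Chst15 with array weights, dim probe sets left out or the block. Pdgfrb and Vim passed in the settings named with the fibroblast markers. Timp2 passed with array weights, quantile normalization, dim probe sets left out, trend and robust options or a pseudocount of 4. Mgp passed with averaged probe sets, quantile normalization or trend and robust options. Tagln and Tgfbr2 were lower with trend and robust options, and the block gave Mfap4 and Tlr4 lower and Krt7 higher. Chpf, Chst1, Chst15, Pdgfrb, Vim, Timp2, Mgp, Tagln, Tgfbr2, Mfap4, Tlr4 and Krt7 were named after their values were seen. No called value changed sign under these alternatives, and of the values recomputed for the 10 genes and the lists, 586 stayed on their side of the threshold (or, for counts, within 1.5 times), 83 weakened and 32 strengthened. The table has no detection calls, so a value near the median of 3.12 cannot be told from background.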

Other observations

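Other proteins of the stromal matrix were measured on the same arrays. Of 14 measured genes of thrombospondins and matricellular proteins, 4 were lower and 0 higher at an adjusted p under 0.05 (7 and 0 at an unadjusted p in limma), with a median log2 fold change of -0.33. Ccn2, the connective tissue growth factor gene, had 38.5, 43.1 and 65.8 in Arid1a d/d uteri, against 166, 283 and 241 in Arid1a f/f uteri, at -2.23 (limma adjusted p = 0.00332), further from 0 than any of the 10 genes. Tnxb, which encodes tenascin-X, a partner of collagen fibrils, had -0.92 (limma adjusted p = 0.0101), and Ccn2 and Tnxb passed with any 1 array left out. Smoc1 had -0.81 (limma adjusted p = 0.0356) and held in 1 of those 6 fits, that without Arid1a d/d replicate 1. Smoc2 held in 2, those without Arid1a d/d replicate 1 or Arid1a f/f replicate 1. Of 18 measured genes of elastic fibres and other stromal matrix, 2 were lower and 0 higher (9 and 0 at an unadjusted p in limma), with a median of -0.34. Fbln5, a fibulin gene of elastic fibre assembly, had 30.9, 25.0 and 32.1 in Arid1a d/d uteri, against 59.1 to 60.9 in Arid1a f/f uteri, at -1.04 (limma adjusted p = 0.00371). Dpt, which encodes dermatopontin, a binding partner of decorin, had -0.76 (limma adjusted p = 0.0122), a call lost without Arid1a f/f replicate 2 or 3.

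Of 14 measured genes of proteases that can cut versican or small proteoglycans and of the TIMP inhibitors, 4 were lower and 0 higher (7 and 1 at an unadjusted p in limma), with a median of -0.41. Adamts9, a versican-cleaving protease gene, had 38.6, 26.8 and 31.9 in Arid1a d/d uteri, against 63.7, 66.4 and 61.7 in Arid1a f/f uteri, at -0.995 (limma adjusted p = 0.0081). The inhibitor gene Timp1 had 16.8, 15.4 and 15.7 in Arid1a d/d uteri, against 29.2, 26.7 and 29.7 in Arid1a f/f uteri, at -0.83 (limma adjusted p = 0.00437), and both passed with any 1 array left out. Mmp3 and Adamts15 had -1.21 and -0.76, with calls lost without Arid1a d/d replicate 3 for Mmp3 and without any 1 array for Adamts15. Of the cell type markers that passed, the endothelial Esam, Vwf, Emcn and Cdh5 had -1.32, -1.46, -1.01 and -1.45, the epithelial Cdh1 and Wnt7a 0.92 and 1.07, the smooth muscle Des -0.64 and the leukocyte Ptprc -0.80. The calls of Des and Ptprc held only without Arid1a d/d replicate 1, that of Wnt7a only without Arid1a d/d replicate 2 or 3, and that of Cdh1 was lost without Arid1a f/f replicate 2.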
